A study of Mus musculus with 9 samples.

Results

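Sphingolipid enzyme genes were followed across mouse glioma lines and neural stem and progenitor cells (NSC). The 10 genes are the serine palmitoyltransferase subunit gene Sptlc2, the ceramide synthase genes Cers2, Cers4, Cers5 and Cers6, the desaturase genes Degs1, Degs2 and Fads3, the glucosylceramide synthase gene Ugcg and the sphingosine kinase gene Sphk1. They are 10 of the 20690 genes measured, and they were listed with earlier results of the glioma lines against NSC in view. Their levels and their differences from NSC are therefore descriptions and carry no test.

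RNA from 9 cell cultures, 3 per group, was hybridised to Affymetrix Mouse Gene 1.0 ST arrays, whose probes are spread over the exons of a gene. The Hras lines came from brains electroporated with EGFP-Hras G12V, and the Erbb2 lines from brains electroporated with EGFP-P2A-Erbb2 V664E. Both also received the blue reporter TagBFPnls-V5 and the transposase plasmid pBase, as did NSC, and these lines and NSC 1 and 2 were from CD1 mice. NSC 1 carried a membrane EGFP and NSC 2 an EGFP-tagged histone 3.3. NSC 3 carried TagBFPnls-V5 without EGFP and came from C57/Bl6 mice with a floxed Dnm2 gene, with no Cre per its description. All cells were taken from the subventricular zone, grown in culture and, per the protocol, sorted for high GFP. NSC 3 has no GFP and its description names a BFP sort. The sources used here do not give the promoter of the transgenes, the age of the mice or whether cultures of a group derive from different mice. The p-values therefore cover the variation among these 9 cultures and no more.

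Sphingolipids are built in the endoplasmic reticulum. Serine palmitoyltransferase joins serine to a fatty acyl chain, ceramide synthases add an acyl chain whose length depends on the synthase, and desaturases place double bonds in the sphingoid base. Ceramide is then turned into sphingomyelin, glucosylceramide and gangliosides, or the galactolipids of myelin, or it is cleaved to sphingosine and phosphorylated to sphingosine 1-phosphate, a ligand of G protein-coupled receptors. In the brain these lipids are abundant in myelin and in the plasma membrane of glial cells.

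Cers4 and Fads3 had the largest differences from NSC among the 10 genes, and Ugcg, Cers2 and Cers5 were also higher on each of the 6 glioma arrays than on each NSC array. Cers4 averaged 9.28 ± 0.63 (SD, n = 6) on the glioma arrays and 6.33 ± 0.36 (SD, n = 3) on the NSC arrays, in log2 units. Fads3 averaged 9.73 ± 0.47 (SD, n = 6) on the glioma arrays and 6.90 ± 0.68 (SD, n = 3) on the NSC arrays. Sptlc2, Degs1, Degs2 and Sphk1 overlapped between the glioma lines and NSC, and so did Cers6.

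The sequences around the transcription starts of 4 of these genes are shown because their glioma and NSC arrays did not overlap: Cers4, Fads3 and Ugcg, which had the largest gaps, and Cers2, whose window holds an Ets-type core, the Ets factors being the subject of the series. Each runs from 250 bases before to 50 bases after a start site in RefSeq, build GRCm38.p6, 5′ to 3′ on the gene's strand. Capitals mark CCGGAA, a core bound by Ets factors, and GGGCGG, the GC box, on either strand. Since Cers2 was chosen for its core, that match is no result. The windows of Cers4, Fads3 and Ugcg lack CCGGAA, as does the other window of Cers2. So does that of Cers5, which is not shown though its arrays did not overlap either.
Cers4, chr8:4493155-4493454, plus strand: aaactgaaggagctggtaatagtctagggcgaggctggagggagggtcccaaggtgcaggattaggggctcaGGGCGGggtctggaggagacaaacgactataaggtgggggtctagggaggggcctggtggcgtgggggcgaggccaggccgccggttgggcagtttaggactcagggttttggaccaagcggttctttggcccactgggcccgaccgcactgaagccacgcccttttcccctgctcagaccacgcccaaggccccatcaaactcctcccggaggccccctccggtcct
Fads3, chr19:10041298-10041597, plus strand: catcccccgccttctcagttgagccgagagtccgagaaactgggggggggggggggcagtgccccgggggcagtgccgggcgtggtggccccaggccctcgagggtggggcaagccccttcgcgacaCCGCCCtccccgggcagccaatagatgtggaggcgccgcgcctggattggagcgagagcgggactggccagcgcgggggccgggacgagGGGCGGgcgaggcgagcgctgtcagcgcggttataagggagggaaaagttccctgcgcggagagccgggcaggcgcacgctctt
Ugcg, chr4:59189300-59189599, plus strand: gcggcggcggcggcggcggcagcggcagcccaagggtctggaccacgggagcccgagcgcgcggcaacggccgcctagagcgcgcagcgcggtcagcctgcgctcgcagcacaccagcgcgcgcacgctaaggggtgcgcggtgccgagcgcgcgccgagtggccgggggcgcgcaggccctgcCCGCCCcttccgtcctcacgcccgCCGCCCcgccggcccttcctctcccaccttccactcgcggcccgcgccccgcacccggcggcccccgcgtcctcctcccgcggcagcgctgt
Cers2, chr3:95314940-95315239, plus strand: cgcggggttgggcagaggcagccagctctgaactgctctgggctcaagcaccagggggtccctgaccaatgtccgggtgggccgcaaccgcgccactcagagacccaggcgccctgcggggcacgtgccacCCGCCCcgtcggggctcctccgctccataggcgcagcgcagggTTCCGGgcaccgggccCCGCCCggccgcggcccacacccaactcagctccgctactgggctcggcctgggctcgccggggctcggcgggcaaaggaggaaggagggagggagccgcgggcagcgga

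The table holds 15 such windows for the 10 genes, and each gene has at least 1. The letters CCGGAA occurred in 4 of the 15 windows, belonging to 3 genes (Cers2, Sptlc2 and Sphk1, with 1 site in 2 overlapping windows of Sphk1), and in 14.9% of the 32851 promoter windows of the mouse table. The letters GGGCGG occurred in 7 of the 15 windows and in 35.7% of all windows. The E-box CACGTG (7.15% of all windows), the AP-1 type motif TGANTCA (7.81%) and the TATA-type motif TATAAA (13.6%) were searched on both strands as well. Cers2 held CACGTG in the window shown, and Cers4, Fads3 and Ugcg held none of these 3 motifs. A match is a description of the letters only, and where no match was found it says only that these letters are not in the window.

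The CpG count was 14 for Cers4, 31 for Fads3, 53 for Ugcg and 30 for Cers2 in the windows shown, against a median of 7 over all windows. High counts were not particular to these genes. Cers5 had 20, and of the genes that overlapped, Sptlc2 had 19, Cers6 28, Degs1 21 and Degs2 21. The windows of Sphk1 had 6 to 21, and the other window of Cers2 had 6.

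The arrays differed in scale. The median log2 value over genes ran from 6.98 to 7.19 on Hras arrays, from 6.56 to 6.73 on Erbb2 arrays and from 6.56 to 6.81 on NSC arrays. Each of the 9 arrays had its highest correlation with an array of another group above its mean correlation with its own group. That sets a maximum over more arrays against a mean over fewer. It therefore does not show that arrays resemble another group more than their own. NSC 1 had the lowest array weight in limma, 0.288. The median log2 difference over all genes was 0.16 for Hras minus NSC, -0.14 for Erbb2 minus NSC, 0.01 for the mean of both minus NSC and 0.29 for Hras minus Erbb2. The genes of the transgenes did not separate the lines from NSC. Hras1 ran from 9.29 to 9.53 on Hras arrays and from 8.96 to 9.81 on NSC arrays, and Erbb2 from 7.003 to 9.18 on Erbb2 arrays and from 7.23 to 7.74 on NSC arrays. Whether their probes read the transgenes is not known.

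A level was called dim below 5.31, the 25th percentile of all values, a limit under which 88.3% of the values of 1097 olfactory receptor genes lay. None of the 10 genes fell below it on any array. The stem cell label was checked against 10 markers, of which the mean level was 9.95 to 10.42 on NSC arrays, with Sox2, a transcription factor of neural stem cells, at 10.57, 10.92 and 10.79. Prom1, a surface marker of these cells, stayed between 5.33 and 5.81 on NSC arrays. The mean of the 10 markers was 9.52 to 10.003 on Hras arrays and 9.32 to 9.59 on Erbb2 arrays. Sox2 ran from 10.98 to 11.55 on Hras arrays and from 10.52 to 10.73 on Erbb2 arrays. High levels of these markers were thus shared by the glioma lines and do not by themselves set NSC apart. Of 8 markers of microglia and macrophages, Aif1 lay below the dim limit on all 9 arrays, while Cx3cr1, Tmem119 and the lysosomal gene Cd68 lay above it on all 9. The mean level of these 8 was 5.73 to 6.20 on Hras arrays, 5.49 to 5.60 on Erbb2 arrays and 5.40 to 5.79 on NSC arrays, and their part in the results was not tested. The cultures are bulk samples, in which fewer cells of a type and less RNA per cell cannot be told apart.

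At the first step of the pathway the groups overlapped. Sptlc2, a subunit of serine palmitoyltransferase, was at 8.91, 10.23 and 9.91 on Hras arrays 1, 2 and 3, at 10.00, 9.33 and 10.14 on Erbb2 arrays 1, 2 and 3, and at 9.06, 9.49 and 9.29 on NSC arrays 1, 2 and 3. Hras 1 lay below all NSC arrays. The log2 difference from NSC was 0.40 (SE 0.36) for the Hras lines and 0.54 (SE 0.36) for the Erbb2 lines.

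Cers4, a ceramide synthase that acts on long and very long acyl chains, was at 9.79, 8.45 and 8.77 on Hras arrays 1, 2 and 3. It was at 9.46, 9.11 and 10.13 on Erbb2 arrays 1, 2 and 3. On NSC arrays 1, 2 and 3 it was at 6.57, 6.50 and 5.91, so that the lowest glioma array, Hras 2, stood 1.88 log2 units above the highest NSC array. The difference from NSC was 2.68 (SE 0.40), or 6.39-fold, for the Hras lines and 3.24 (SE 0.40), or 9.44-fold, for the Erbb2 lines. For the mean of both groups of lines minus NSC it was 2.96 (SE 0.34), or 7.76-fold.

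Cers2, the synthase of ceramides with very long acyl chains and needed for normal myelin in mice, was higher in the glioma lines by a smaller amount. Cers2 was at 11.53, 11.33 and 11.38 on Hras arrays, at 11.30, 11.34 and 11.50 on Erbb2 arrays and at 10.93, 10.97 and 11.04 on NSC arrays. The 6 glioma arrays lay above the 3 NSC arrays with a gap of 0.26, and spread within a group was small, with SDs of 0.11, 0.11 and 0.06. The log2 difference from NSC was 0.43 (SE 0.18) for the Hras lines and 0.40 (SE 0.18) for the Erbb2 lines. With each array centred on its median the Hras difference was 0.04, beside a median of -0.23 for all genes in that setting.

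Cers5 and Cers6 both favour palmitoyl chains. Cers5 was at 11.51, 11.09 and 10.84 on Hras arrays, at 11.62, 11.46 and 11.34 on Erbb2 arrays and at 10.28, 10.55 and 10.78 on NSC arrays. The groups did not overlap, but Hras 3 exceeded NSC 3 by only 0.05. Cers6 was at 9.23, 9.36 and 9.83 on Hras arrays, at 9.76, 8.59 and 9.52 on Erbb2 arrays and at 7.21, 8.81 and 8.02 on NSC arrays. Erbb2 2 lay below NSC 2, and the NSC arrays were the most dispersed of the 3 groups (SD 0.80). The mean of both groups of lines minus NSC was 0.77 (SE 0.21) for Cers5 and 1.37 (SE 0.38) for Cers6, and the value for Cers6 was 0.96 without NSC 1 and 1.76 without NSC 2.

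**Figure D1:**
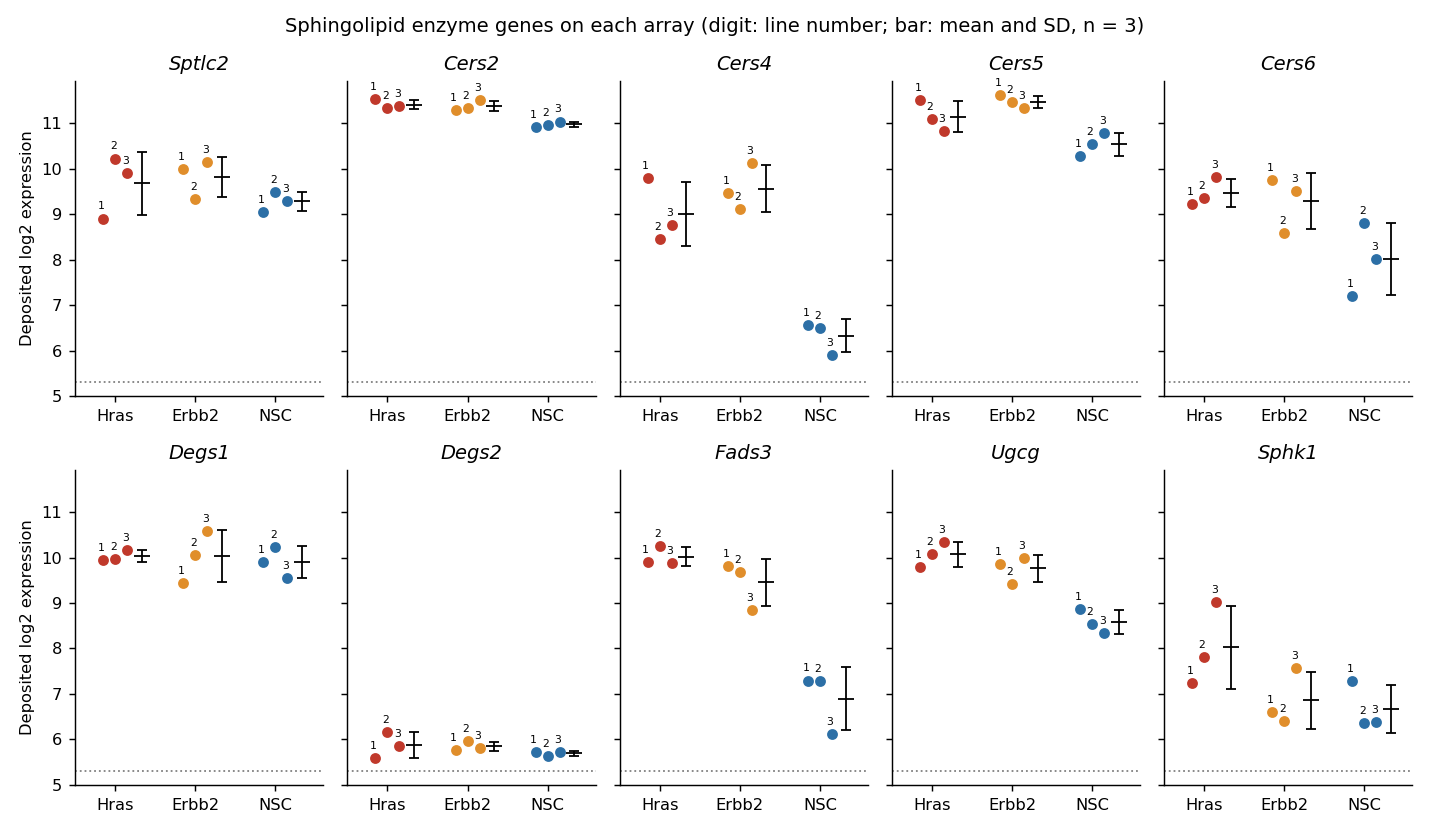
Deposited log2 expression (vertical axis) of the 10 sphingolipid enzyme genes on each array, by group (horizontal axis: Hras lines, Erbb2 lines, NSC), with the line number beside each point, the mean and SD of 3 arrays as a bar, and the dim limit of 5.31 as a dotted line. Cers4, Fads3, Ugcg, Cers2 and Cers5 are higher on all 6 glioma arrays than on the 3 NSC arrays, while Degs1 overlaps in all groups.

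Fads3, a desaturase that places an additional double bond in the sphingoid base, was at 9.91, 10.26 and 9.89 on Hras arrays 1, 2 and 3. It was at 9.82, 9.68 and 8.85 on Erbb2 arrays 1, 2 and 3, and at 7.29, 7.29 and 6.11 on NSC arrays 1, 2 and 3. The lowest glioma array, Erbb2 3, stood 1.56 log2 units above the highest NSC array. The difference from NSC was 3.12 (SE 0.38), or 8.69-fold, for the Hras lines and 2.55 (SE 0.38), or 5.87-fold, for the Erbb2 lines. NSC 3, from the C57/Bl6 strain, was the lowest NSC array for both Fads3 and Cers4. Without NSC 3 the mean of both groups of lines minus NSC was 2.44 for Fads3 and 2.75 for Cers4, against 2.84 and 2.96 with it.

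The other desaturases showed no such difference. Degs1, which turns dihydroceramide into ceramide, was at 9.95, 9.97 and 10.18 on Hras arrays, at 9.44, 10.05 and 10.58 on Erbb2 arrays and at 9.91, 10.24 and 9.55 on NSC arrays. Both the highest and the lowest of these values were Erbb2 arrays. Degs2, a desaturase and hydroxylase that makes phytoceramide, was at 5.59, 6.17 and 5.85 on Hras arrays, at 5.77, 5.96 and 5.81 on Erbb2 arrays and at 5.73, 5.64 and 5.73 on NSC arrays. These levels lay just above the dim limit. The mean of both groups of lines minus NSC was 0.13 (SE 0.27) for Degs1 and 0.16 (SE 0.18) for Degs2, and with arrays centred it was -0.05 and -0.02.

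Ugcg makes glucosylceramide, the precursor of gangliosides. It was at 9.80, 10.07 and 10.35 on Hras arrays 1, 2 and 3, at 9.87, 9.42 and 9.99 on Erbb2 arrays 1, 2 and 3, and at 8.87, 8.54 and 8.34 on NSC arrays 1, 2 and 3. The 6 glioma arrays lay above the NSC arrays with a gap of 0.55. NSC 3, from the C57/Bl6 strain, was the lowest NSC array here too. The difference from NSC was 1.49 (SE 0.25), or 2.81-fold, for the Hras lines and 1.18 (SE 0.25), or 2.26-fold, for the Erbb2 lines.

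Sphk1, which phosphorylates sphingosine, had the widest spread of the 10 genes over the glioma arrays (SD 0.95, n = 6). It was at 7.25, 7.81 and 9.03 on Hras arrays, at 6.60, 6.41 and 7.58 on Erbb2 arrays and at 7.28, 6.36 and 6.37 on NSC arrays. Hras 3 was the highest array and Hras 1 lay just below NSC 1, so the groups overlapped. The difference from NSC was 1.36 (SE 0.50) for the Hras lines and 0.20 (SE 0.50) for the Erbb2 lines, and without Hras 3 the Hras value was 0.86.

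**Figure D2:**
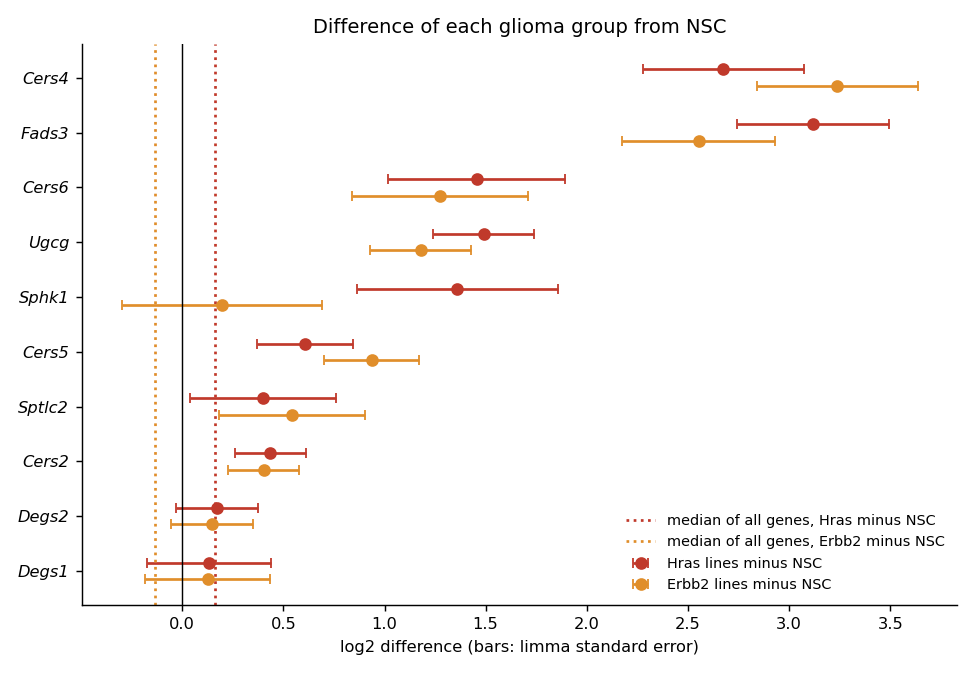
Difference of the Hras lines (red, upper point) and of the Erbb2 lines (orange, lower point) from NSC for each of the 10 genes, in log2 units with limma standard errors; dotted lines are the medians of all genes, 0.16 and -0.14. Cers4 and Fads3 lie furthest to the right in both groups of lines, and Sphk1 is at 1.36 for the Hras lines and 0.20 for the Erbb2 lines.

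Counted together, 10 of 10 genes had a positive difference for the mean of both groups of lines minus NSC, as did 51.4% of all genes, and all 10 were also positive for Hras minus NSC (68.5% of all genes) and for Erbb2 minus NSC (36.7%). Under other settings Degs1 and Degs2 changed sign for Hras minus NSC, and Degs1 and Sphk1 for Erbb2 minus NSC, where Sphk1 was at -0.16 without Erbb2 3. On 5 of 10 genes all 6 glioma arrays lay above all NSC arrays, as they did for 2.87% of all genes. In limma's fit across all genes 3 of the 10 (Cers4, Fads3 and Ugcg) passed an adjusted p under 0.05 as higher, as did 0.256% of all genes. Cers4 passed in 9, Fads3 in 10 and Ugcg in 2 of 15 other settings. Since the list was drawn up with this comparison known, nothing is read from these counts. The median of the 10 differences was 0.78, and that of all genes 0.01.

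For the single groups of lines, limma called 0 of 10 genes against NSC in either group, where it called 0.0% of all genes for Hras and 0.00967% for Erbb2. At an unadjusted p under 0.05 the counts were 7 of 10 for Hras minus NSC (2481 of all 20690 genes) and 6 of 10 for Erbb2 minus NSC (1909 of all 20690), which again used the comparison that chose the list. The Hras arrays all lay above NSC for 6 genes (11.9% of all genes) and the Erbb2 arrays for 6 genes (5.09% of all genes). The sets were Cers2, Cers4, Cers5, Fads3 and Ugcg in both, with Cers6 added for Hras and Degs2 for Erbb2. Both comparisons use the same 3 NSC arrays.

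The lines of the 2 oncogenes were not told apart by these genes. In limma's test of Hras minus Erbb2, 0 of 10 genes were called (0.0% of all genes), with 1 of 10, Sphk1, at an unadjusted p under 0.05, as were 2625 of all 20690 genes. Sphk1 differed by 1.16 (SE 0.50, limma adjusted p = 0.391), Fads3 by 0.57 (SE 0.38, limma adjusted p = 0.482), Cers4 by -0.56 (SE 0.40, limma adjusted p = 0.5) and Ugcg by 0.31 (SE 0.25, limma adjusted p = 0.54). The remaining adjusted p-values lay between 0.51 for Cers5 and 0.991 for Degs1. The Hras arrays lay above the Erbb2 arrays without overlap for 1 of 10 genes, Fads3, by 0.07, as they did for 25.6% of all genes. The median difference of the 10 genes was 0.03, beside 0.29 for all genes.

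The rest of the pathway was read from 79 further genes chosen by role in 12 role groups, of which 78 were matched to the table. The list was drawn up with earlier results of these data known, so its counts and p-values are descriptions. For the mean of both groups of lines minus NSC, 53 of the 78 had a positive difference (51.4% of all genes). A negative difference was found for 25, and the median was 0.23, beside 0.01 for all genes. Limma called 2 of 78 higher (0.256% of all genes) and 0 lower (0.0967% of all genes), and the 2 are a receptor and a phosphatase of sphingosine 1-phosphate. For Hras minus NSC, Erbb2 minus NSC and Hras minus Erbb2 it called 0 of 78. At an unadjusted p under 0.05 there were 12 of 78 for Hras minus NSC (2481 of all 20690 genes), 20 of 78 for Erbb2 minus NSC (1909 of all) and 8 of 78 for Hras minus Erbb2 (2625 of all).

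S1pr2, a G protein-coupled receptor of sphingosine 1-phosphate, rose in the glioma lines. It was at 9.56, 9.12 and 8.94 on Hras arrays, at 10.02, 9.62 and 9.11 on Erbb2 arrays and at 7.59, 7.73 and 7.79 on NSC arrays, with no overlap and little spread in NSC. The difference was 1.69 (SE 0.24), or 3.23-fold, and higher on 6 of 6 glioma arrays (limma adjusted p = 0.039). Over the alternative settings the adjusted p ran from 0.0262 to 0.187, and the call was lost after quantile normalization, with centred arrays, or without any of Hras 1, Hras 2, Erbb2 1, Erbb2 2 and the NSC arrays. S1pr1, the receptor best known from lymphocyte traffic and vessels, differed by -1.23 (SE 0.83, limma adjusted p = 0.676), and the other 3 receptors by -0.24 to 0.17.

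Of the lipid phosphate phosphatases limma called 1 higher (0.256% of all genes). These enzymes of the cell surface dephosphorylate sphingosine 1-phosphate and related lipids. Plpp2, listed under its older symbol Ppap2c, was at 9.46, 9.13 and 9.68 on Hras arrays, at 9.86, 9.62 and 8.09 on Erbb2 arrays and at 7.47, 6.48 and 6.55 on NSC arrays. It rose by 2.47 (SE 0.40), or 5.56-fold, and was higher on 6 of 6 glioma arrays (limma adjusted p = 0.0475). Over the alternatives the adjusted p of Ppap2c ran from 0.0177 to 0.229, and the call was lost in 11 of them, among them quantile normalization, centred arrays and the removal of any array but Erbb2 3.

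Plpp3, listed as Ppap2b, was lower on 6 of 6 glioma arrays, at 9.54, 9.42 and 8.93 on Hras arrays and at 9.46, 9.99 and 9.05 on Erbb2 arrays, against 10.85, 11.89 and 10.96 on NSC arrays (1.28% of all genes were lower on all 6). The difference of Ppap2b was -1.83 (SE 0.30) and did not pass the threshold (limma adjusted p = 0.0503), though it did without dim genes, with array weights and with a replicate block. Plpp1, listed as Ppap2a, differed by 0.82 (SE 0.26, limma adjusted p = 0.287), with all 6 glioma arrays above NSC.

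Among 15 further genes of glycosphingolipid and ganglioside synthesis, 11 had a positive difference (51.4% of all genes), with a median of 0.66 and 0 called. St8sia1, which makes gangliosides of the b series, was at 9.54, 10.28 and 9.15 on Hras arrays, at 9.15, 8.76 and 9.81 on Erbb2 arrays and at 8.07, 8.50 and 8.08 on NSC arrays, without overlap (difference 1.23, SE 0.31, limma adjusted p = 0.174). St3gal5, which forms the first ganglioside from lactosylceramide, differed by 1.75 (SE 0.53, limma adjusted p = 0.267), also without overlap. Of 13 genes of lysosomal and other breakdown, 11 had a positive difference (51.4% of all genes) and 0 were called.

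**Figure D3:**
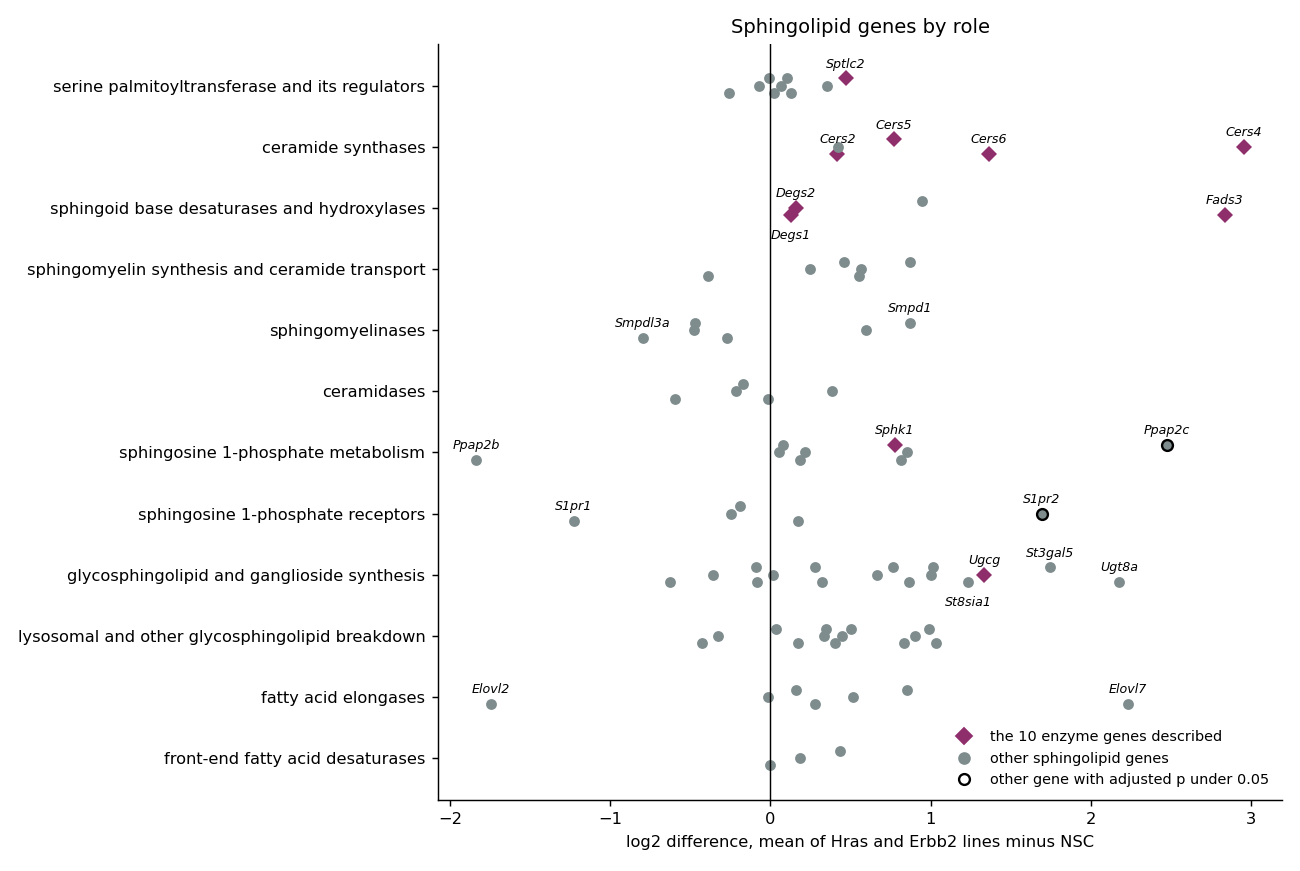
Difference of the mean of Hras and Erbb2 lines from NSC in log2 units (horizontal axis) for each sphingolipid gene, in rows by role; purple diamonds are the 10 enzyme genes and grey circles the 78 others, with a black edge where the adjusted p is under 0.05. S1pr2 at 1.69 and Ppap2c at 2.47 carry that edge, and Ppap2b at -1.83 lies furthest to the left.

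Genes of sphingomyelin breakdown and synthesis, the ceramidase genes and the remaining genes of the early steps had both positive and negative differences. The 6 sphingomyelinase genes had a median of -0.37, with Smpd1, the acid sphingomyelinase, at 0.87 (limma adjusted p = 0.31) and Smpdl3a at -0.80 (limma adjusted p = 0.689). The 5 ceramidase genes had a median of -0.17, from -0.60 for Acer3, an alkaline ceramidase, to 0.38 for Asah2, the neutral ceramidase. The 6 genes of sphingomyelin synthesis and ceramide transport had a median of 0.51, led by the ceramide transfer protein gene Cert1, listed as Col4a3bp, at 0.87 (limma adjusted p = 0.4) and the ceramide kinase gene Cerk at 0.57 (limma adjusted p = 0.701). Among 8 further genes of serine palmitoyltransferase and its regulators the median was 0.05, with the subunit gene Sptlc1 at 0.35 and the small subunit gene Sptssa at -0.26. The remaining synthase on the table, Cers3, known from skin, differed by 0.42 (limma adjusted p = 0.79).

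Fatty acid elongases, which supply the acyl chains, had differences of both signs. Elovl7 was at 10.26, 7.57 and 6.31 on Hras arrays, at 10.03, 9.60 and 9.56 on Erbb2 arrays and at 7.17, 7.08 and 5.72 on NSC arrays (difference 2.23, limma adjusted p = 0.322). Elovl2 differed by -1.74 (limma adjusted p = 0.301). Elovl1, the elongase that provides very long saturated chains, was above NSC on all 6 glioma arrays, by as little as 0.02 (difference 0.85, limma adjusted p = 0.405). Fads1 and Fads2, relatives of Fads3 that act on polyunsaturated fatty acids, differed by 0.43 and 0.18, and limma's adjusted p was 0.649 and 0.866. Of the breakdown genes, Gla, which cleaves globosides, differed by 1.04 (limma adjusted p = 0.446) and Arsa, which desulfates sulfatide, by 0.99 (limma adjusted p = 0.494).

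Genes of the myelin branch differed between the glioma arrays themselves. Ugt8a, which makes galactosylceramide, was at 10.50, 8.19 and 5.80 on Hras arrays 1, 2 and 3, at 9.24, 9.80 and 5.37 on Erbb2 arrays 1, 2 and 3, and at 6.95, 5.54 and 5.44 on NSC arrays 1, 2 and 3. Hras 3 and Erbb2 3 were thus within or below the NSC range. Gal3st1, which sulfates galactosylceramide, was at 7.65, 6.65 and 5.75 on Hras arrays, at 7.94, 8.14 and 5.35 on Erbb2 arrays and at 5.96, 6.02 and 5.75 on NSC arrays. Fa2h, which hydroxylates the acyl chain of myelin lipids, had the same pair of low glioma arrays, at 5.64 on Hras 3 and 5.44 on Erbb2 3, against 5.34 to 5.87 on NSC arrays. Limma's adjusted p for the mean of both groups of lines minus NSC was 0.582 for Ugt8a, 0.647 for Gal3st1 and 0.562 for Fa2h.

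Cers4, Fads3 and Ugcg stayed above NSC on Hras 3 and Erbb2 3 as well. On Erbb2 3, where Ugt8a was lowest among the glioma arrays, Cers4 had its highest level, 10.13, and Fads3 its lowest glioma level, 8.85, and on Hras 3 Ugcg had its highest, 10.35. Sox10, a transcription factor of the oligodendrocyte lineage, was at 10.59, 8.61 and 6.56 on Hras arrays, at 11.56, 10.60 and 6.17 on Erbb2 arrays and at 6.71, 6.25 and 6.73 on NSC arrays. The mean level of 6 markers of oligodendrocyte precursors ran from 8.10 to 10.50 on Hras arrays, from 8.29 to 11.07 on Erbb2 arrays and from 7.82 to 8.12 on NSC arrays, and limma called 1 of them, Pdgfra, for the mean of both groups of lines minus NSC. Others of the 6 were already high in NSC. Olig1 ran from 9.58 to 12.07 on Hras arrays, from 10.96 to 11.72 on Erbb2 arrays and from 11.45 to 12.24 on NSC arrays, and Olig2 from 9.17 to 11.06 on Hras arrays, from 10.65 to 11.05 on Erbb2 arrays and from 10.45 to 11.22 on NSC arrays. The mean of 8 oligodendrocyte markers, 1 of which is Ugt8a, ran from 6.29 to 7.84 on Hras arrays, from 6.08 to 7.70 on Erbb2 arrays and from 6.25 to 6.77 on NSC arrays. The mean of 6 astrocyte markers, of which limma called 0, was at 6.56 to 7.41 on Hras arrays and 6.52 to 8.14 on Erbb2 arrays, against 8.004 to 9.33 on NSC arrays, and only Erbb2 2 reached the NSC range. Single astrocyte markers went both ways for the mean of both groups of lines minus NSC. S100b differed by 1.95, but Aldh1l1 by -3.96, Gja1 by -1.80, Gfap by -1.69, Aqp4 by -1.34 and Slc1a2 by -0.36. Gja1 ran from 5.04 to 11.12 over the glioma arrays, against 9.48 to 10.86 on NSC arrays. What part these cell states have in the levels of the 10 genes was not tested.

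**Figure D4:**
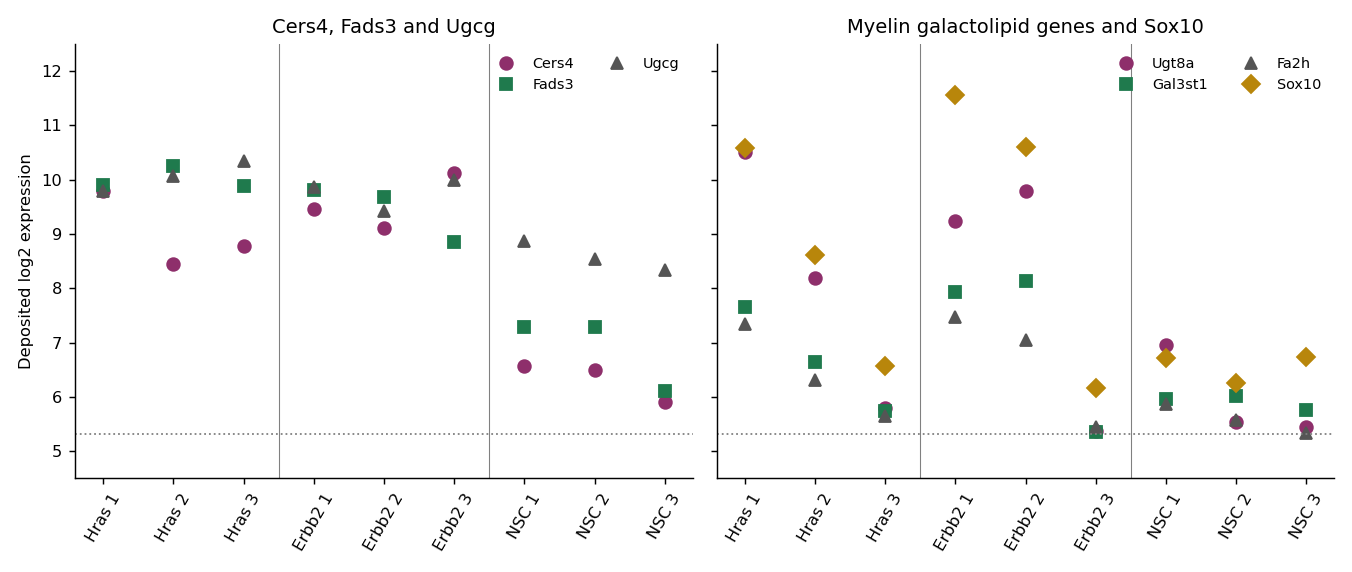
Deposited log2 expression (vertical axis) on each of the 9 arrays (horizontal axis) for Cers4, Fads3 and Ugcg at the left and for the myelin lipid genes Ugt8a, Gal3st1 and Fa2h with Sox10 at the right; points are to be compared within a gene, and the dotted line is the dim limit of 5.31. Hras 3 and Erbb2 3 sit with NSC at the right, for example Ugt8a at 5.80 and 5.37, but above NSC at the left.

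The 10 genes varied together to different degrees. Over the 9 arrays the Pearson correlation was 0.94 between Cers2 and Cers4, 0.91 between Fads3 and Ugcg and 0.85 between Cers4 and Fads3. Within the 6 glioma arrays the same pairs had 0.71, 0.11 and -0.77, and for Cers4 and Fads3 Hras 2 and Erbb2 3 were at opposite ends while Hras 1 was second highest for both. Sphk1 and Ugcg had 0.72 over 9 arrays and 0.91 over the 6 glioma arrays. These are descriptions over few arrays that share the groups, and no p is given.

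Of 16978 named genes, the 5 closest to Cers4 over the 9 arrays were the ferrireductase gene Steap3 (Pearson r = 0.96), the sialyltransferase gene St3gal6 (0.96), the carboxypeptidase gene Scpep1 (0.95), the homeobox gene Hoxa4 (0.95) and the nuclear envelope gene Sun2 (0.95). The most opposite were Rfx4 (-0.96), Scgb1c1 (-0.95) and Grm3 (-0.95). For Fads3 the 5 closest were Eaf1 (0.97), the laminin chain gene Lama4 (0.96), Lhfpl2 (0.96), the potassium channel gene Kcnk13 (0.95) and the helicase gene Ddx49 (0.95). The most opposite to Fads3 were Nrn1 (-0.97), Dbx2 (-0.95) and Lpo (-0.94). All 16 genes had glioma and NSC arrays that did not overlap, which sets much of the correlation, and within the 6 glioma arrays it was 0.93 for Fads3 and Kcnk13 but 0.57 for Cers4 and Steap3.

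Relative to their size, the differences of Cers4 and Fads3 from NSC changed less under other settings than those of the other genes. In log2 units the range of Fads3 was wider than those of Cers2 and Cers5. Across 15 other settings, Cers4 ran from 2.75 to 3.10, Fads3 from 2.44 to 3.05 and Ugcg from 1.14 to 1.48 for the mean of both groups of lines minus NSC. Sptlc2 ran from 0.27 to 0.66, Cers2 from 0.24 to 0.45 and Cers5 from 0.59 to 0.89. For Cers6 the range was 0.96 to 1.76 and for Sphk1 0.53 to 1.08. The number of the 10 passing the threshold was less steady, at 0 after quantile normalization and without Hras 2, Erbb2 1 or NSC 2, and at 1 without Hras 1, NSC 1 or NSC 3. In 8 of 10 genes the sign stayed the same in all 15, the exceptions being Degs1 and Degs2.

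**Figure D5:**
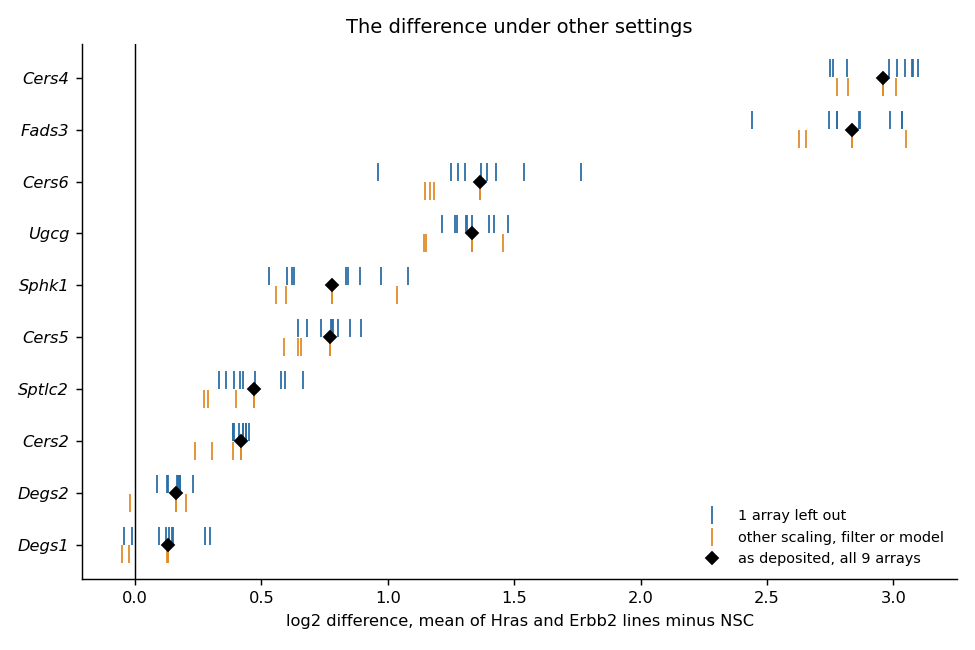
Difference of the mean of Hras and Erbb2 lines from NSC in log2 units (horizontal axis) for each of the 10 genes, as deposited (black diamond), with 1 array left out (blue ticks) and under another scaling, filter or model (orange ticks). Cers4 stays between 2.75 and 3.10, and only Degs1 and Degs2 have ticks at or below 0.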

How the data were processed

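The authors deposited a table of log2 values for 20715 gene rows and, per probe set, a table of linear intensity values (35511 rows with values). The sources used here do not give the background correction, the normalization or the summary over probes. Of the log2 values, 25 rows with a number for a symbol were left out. Each of the 10 genes equalled the log2 intensity of exactly 1 probe set (tolerance 1e-04).

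Groups follow the sample titles, and 0 value columns were unmapped. limma 3.58.1 (R 4.3.3) was fitted to the 20690 genes with all 9 arrays together (6 residual and 3.12 prior degrees of freedom) and Benjamini-Hochberg adjustment over all genes. With 3 arrays a group, that number limits the precision. The fit was also run on simulated data with known changes. The check that these were called used a smaller spread than that of most of the 10 genes. It therefore does not show how many real changes the fit would find here. Alternatives were quantile normalization, centred arrays, no dim genes, a mean-variance trend, array weights, only the groups compared, a replicate block and 1 array left out. Members and lists were chosen with earlier results of these data known. Named are the 10 genes, other sphingolipid genes called in any comparison, the 2 with the largest difference per role group, and, after their values were seen, others whose arrays did not overlap, Gal3st1 and B3galt4, while 1 gene is not reported here. For Cers4 and Fads3 the 5 most alike and 3 most opposite genes are named. Of 89 listed sphingolipid genes 88 matched, 6 through older symbols, and all 66 markers matched.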

Additional observations from a re-analysis of the deposited data

Results flagged for a closer look

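For B3galt4, a galactosyltransferase of ganglioside synthesis, every Hras array lay above the NSC mean and every Erbb2 array below it, with log2 differences from NSC of 0.26 for the Hras lines and -0.43 for the Erbb2 lines. The difference between the lines themselves was 0.70 (limma adjusted p = 0.391). The medians over all genes had the same signs, at 0.16 for Hras minus NSC and -0.14 for Erbb2 minus NSC. Between the lines the median over all genes was 0.29.

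For Fads2, the desaturase next to Fads3 in its family, every Hras array lay below and every Erbb2 array above the NSC mean, with differences of -0.11 for the Hras lines and 0.47 for the Erbb2 lines. The difference between the lines was -0.58 (limma adjusted p = 0.411). Groups of 3 arrays are too small for a check of single arrays that stand apart.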

How the results depend on the processing

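Settings were changed one at a time. For the mean of both groups of lines minus NSC, calls over all genes numbered 73, against 12 after quantile normalization, 23 with centred arrays and 0 to 70 with 1 array left out. Of the 10 enzyme genes 3 were called, against 0 after quantile normalization and 0 to 2 with 1 array left out. Of the 78 others 2 were called, against 0 after quantile normalization and with centred arrays, 1 with a mean-variance trend and 0 to 2 with 1 array left out.

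For Hras minus NSC calls over all genes were 0, against 2 after quantile normalization, 1 with centred arrays, 70 with array weights, 20 from only the 2 groups compared and 0 to 76 with 1 array left out. Of the 10 genes 3 were called with array weights, 1 from only the 2 groups compared and 0 to 1 with 1 array left out. Of the 78 others 1 was called with array weights and 0 to 1 with 1 array left out. For Erbb2 minus NSC calls over all genes were 2, against 1 after quantile normalization, 8 without dim genes, 7 with the trend, 37 with array weights, 8 from only the 2 groups compared and 0 to 13 with 1 array left out. Of the 10 genes 1 was called without dim genes, 1 with the trend, 2 with array weights and 0 to 1 with 1 array left out. Of the 78 others 1 was called with array weights and 0 to 1 with 1 array left out. For Hras minus Erbb2 limma called 0 genes, with 2625 at an unadjusted p under 0.05, and 0 in all 16 other settings. The mean of both groups minus NSC uses all arrays, so fitting only the groups compared gave no value there.

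The replicate numbers share no stated source, and deviations of same-numbered arrays correlated from -0.34 to 0.44. With the number as a replicate block, calls over all genes were 9 for Hras minus NSC, 27 for Erbb2 minus NSC and 92 for the mean of both. Of the 10 genes 1, 2 and 2 were then called, in the same order, and of the 78 others 0, 0 and 3 (Ppap2b, Ppap2c and S1pr2).

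Small differences between Hras and Erbb2 lines changed sign. After quantile normalization Cers2 was at -0.072, Degs1 at -0.10 and Degs2 at -0.42, and with centred arrays Cers2 was at -0.39, Cers6 at -0.24, Degs1 at -0.41, Degs2 at -0.39, Ugcg at -0.11 and Ppap2c at -0.19. With 1 array left out Sptlc2 ran from -0.42 to 0.24, Cers2 from -0.027 to 0.095, Cers6 from -0.17 to 0.41, Degs1 from -0.28 to 0.29, Degs2 from -0.12 to 0.16 and Ppap2c from -0.32 to 0.57. The causes were not tested. Probe sets as features were not run, since no table pairing probes with genes was used here. Centring moved the median of all genes for the mean of both minus NSC from 0.01 to -0.17.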
